A study of Mus musculus with 15 samples.

Results

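The transcripts described here encode the proteins that raise and lower calcium in the heart muscle cell with each beat. They come from 9 genes: Cacna1c, Ryr2, Trdn, Casq2, Hrc, Atp2a2, Pln, Camk2d and Slc8a1. The genes were chosen by name and not by a rule on measured values, though earlier results of these data were known. All non-control probes whose accession belongs to them were taken. This gave 20 of the 41174 probes on the array and 9 of the 18350 genes that the array's accessions name, and all 20 probes entered the tests.

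A heart muscle cell contracts when calcium enters through the L-type channel, whose pore is encoded by Cacna1c, and opens the ryanodine receptor, Ryr2, which releases a larger store of calcium from the sarcoplasmic reticulum. Inside that store, calsequestrin (Casq2) and the histidine-rich calcium binding protein (Hrc) hold calcium, and triadin (Trdn) ties them to the release channel. The cell relaxes as the pump SERCA2 (Atp2a2), restrained by phospholamban (Pln), returns calcium to the store and the sodium-calcium exchanger NCX1 (Slc8a1) carries it out of the cell. The kinase CaMKII-delta (Camk2d) phosphorylates several of these proteins. Lower SERCA2 and altered NCX1 levels are familiar features of failing hearts.

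RNA came from excised hearts of C57BL/6 mice that were 8 to 10 weeks old at the first injection. Meth-treated mice, 4 males and 4 females, were injected into the abdomen every week with methamphetamine hydrochloride (meth) in phosphate-buffered saline (PBS). The weekly dose rose in steps of 2 mg and stood at 40 mg/kg by week 20. Controls, 4 males and 3 females, received PBS alone on that schedule. All hearts were taken after the 5 months of dosing, so each came from a mouse that had completed it. Each mouse had an Agilent 1-colour array of its own, so the arrays of a group are separate mice. The spread between them also holds differences between slides and, in males, between trials. The male groups each held 2 mice from each of 2 trials, and the sample labels disagree on the trial of 3 female mice (numbers 3 and 4 of the meth group and 3 of the PBS group). These 3 arrays shared slide 4 and slide 3 held the trial 2 males. The trial 1 males and the females numbered 1 were on slide 1, and those numbered 2 on slide 2. Because the hearts were analysed in bulk, fewer cells of a type and less RNA per cell cannot be told apart.

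Values are log2 signals relative to the 75th percentile of the same array, so that 0 equals that percentile and a difference of 1 is a doubling. That percentile was 307 to 403 intensity units on slides 1 to 3 and 438 to 589 on slide 4, and 61.4% to 71.4% of probes were well above background. All 12 genes of a cardiomyocyte marker list were well above background on every array, and none passed the test for meth in either sex. In contrast, 6 of the 7 tested genes of an airway and lung list were higher in meth-treated males. The log2 of that list's summed signal was 5.12 to 7.41 in male meth hearts against 0.55 to 0.86 in male PBS hearts, and at least 6 and at least 3 of its 9 genes on the array were well above background on each array of these groups. It was 1.21 to 2.44 in female meth hearts and 1.64 to 2.36 in female PBS hearts. Of the tested genes of the list, 1 was higher and 1 lower in meth-treated females by the same test. The female log2 fold changes of the list ran from -2.08 to 4.77. What part this airway signal has in the male values below was not tested.

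To show the sequence before the start of these genes, RefSeq windows of 250 bases on build GRCm38.p6 were searched for 3 sets of letters on both strands: AGATAA, bound by GATA factors, CTAAAAA, the core of MEF2 sites, and CAGCTG, an E-box. The windows of 3 genes are printed in the direction of the gene, 5′ to 3′, with matches in capitals. Slc8a1 (chr17:81738388-81738637, minus strand) is shown because it was the member that passed the test. Ryr2 (chr13:12106946-12107195, minus strand) and Hrc (chr7:45335019-45335268, plus strand) are shown because their signals ran most closely together over the arrays.
Slc8a1: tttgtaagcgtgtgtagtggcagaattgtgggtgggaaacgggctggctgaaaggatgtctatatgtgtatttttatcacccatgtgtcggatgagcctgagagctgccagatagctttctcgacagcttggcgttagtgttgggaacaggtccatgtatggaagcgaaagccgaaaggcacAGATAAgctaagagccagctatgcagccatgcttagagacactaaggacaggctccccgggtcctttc
Ryr2: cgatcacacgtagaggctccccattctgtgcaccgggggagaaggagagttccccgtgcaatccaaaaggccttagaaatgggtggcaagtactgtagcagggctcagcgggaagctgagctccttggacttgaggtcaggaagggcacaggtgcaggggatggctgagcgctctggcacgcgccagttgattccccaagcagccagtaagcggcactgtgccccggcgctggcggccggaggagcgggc
Hrc: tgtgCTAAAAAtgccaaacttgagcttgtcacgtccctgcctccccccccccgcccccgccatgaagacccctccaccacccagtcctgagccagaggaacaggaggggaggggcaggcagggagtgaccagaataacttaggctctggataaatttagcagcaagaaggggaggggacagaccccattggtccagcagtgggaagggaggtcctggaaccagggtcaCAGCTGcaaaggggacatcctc
The Slc8a1 window held AGATAA, as did 9.99% of the 32851 windows in the table. The Hrc window held CTAAAAA near its far end and CAGCTG near the start of the gene, and these letters were in 3.09% and 13% of all windows. The Ryr2 window held none of the 3. Among the other members, CTAAAAA lay at 2 positions before Casq2 and AGATAA before Pln. RefSeq windows were found for 7 of the 9 genes, and a match is only a run of letters.

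Within each sex, none of the 9 transcripts passed the threshold for meth against PBS. In male hearts 8 of the 9 had a negative log2 fold change, with a median of -0.16 and a range of -0.47 for Slc8a1 to 0.05 for Cacna1c. In female hearts 5 were negative and 4 positive, with a median of -0.0049 and a range of -0.36 to 0.20. Over all 14217 genes tested the medians were -0.02 in males and 0.03 in females, with 7833 and 5892 genes below 0. The cardiomyocyte marker list leaned the same way in males, with 10 of 12 genes below 0 and a median of -0.08, and had a median of 0.03 in females. At the threshold, an adjusted p of 0.05, the 0 of 9 members stood against 1.11% of all probes in males and 0.758% in females (limma, Benjamini-Hochberg over 28358 probes). Counted by gene, 148 of 14217 were called higher and 42 lower in males, and 34 higher and 29 lower in females. By the methods' paired t-test without adjustment, 3 members in males (Cacna1c, Camk2d and Trdn) and 2 in females (Slc8a1 and Trdn) were below 0.05, as were 15.2% and 9.93% of all probes, and after adjustment none was. Under the alternatives applied to all 9 genes at once, 7 or 8 members were below 0 in males. In females the number ranged from 2 to 7, where a shift by each array's median left 2 and quantile normalization 7. These counts leave out the choice of a single other probe, and Cacna1c probe A_52_P25903 gave -0.0003 in males. The male median was -0.07 with quantile normalization, -0.10 with a shift by the cardiomyocyte list, -0.11 in trial 1 alone and -0.10 without male meth replicate 1 of trial 2, and the female median ran from -0.09 to 0.07.

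**Figure D1:**
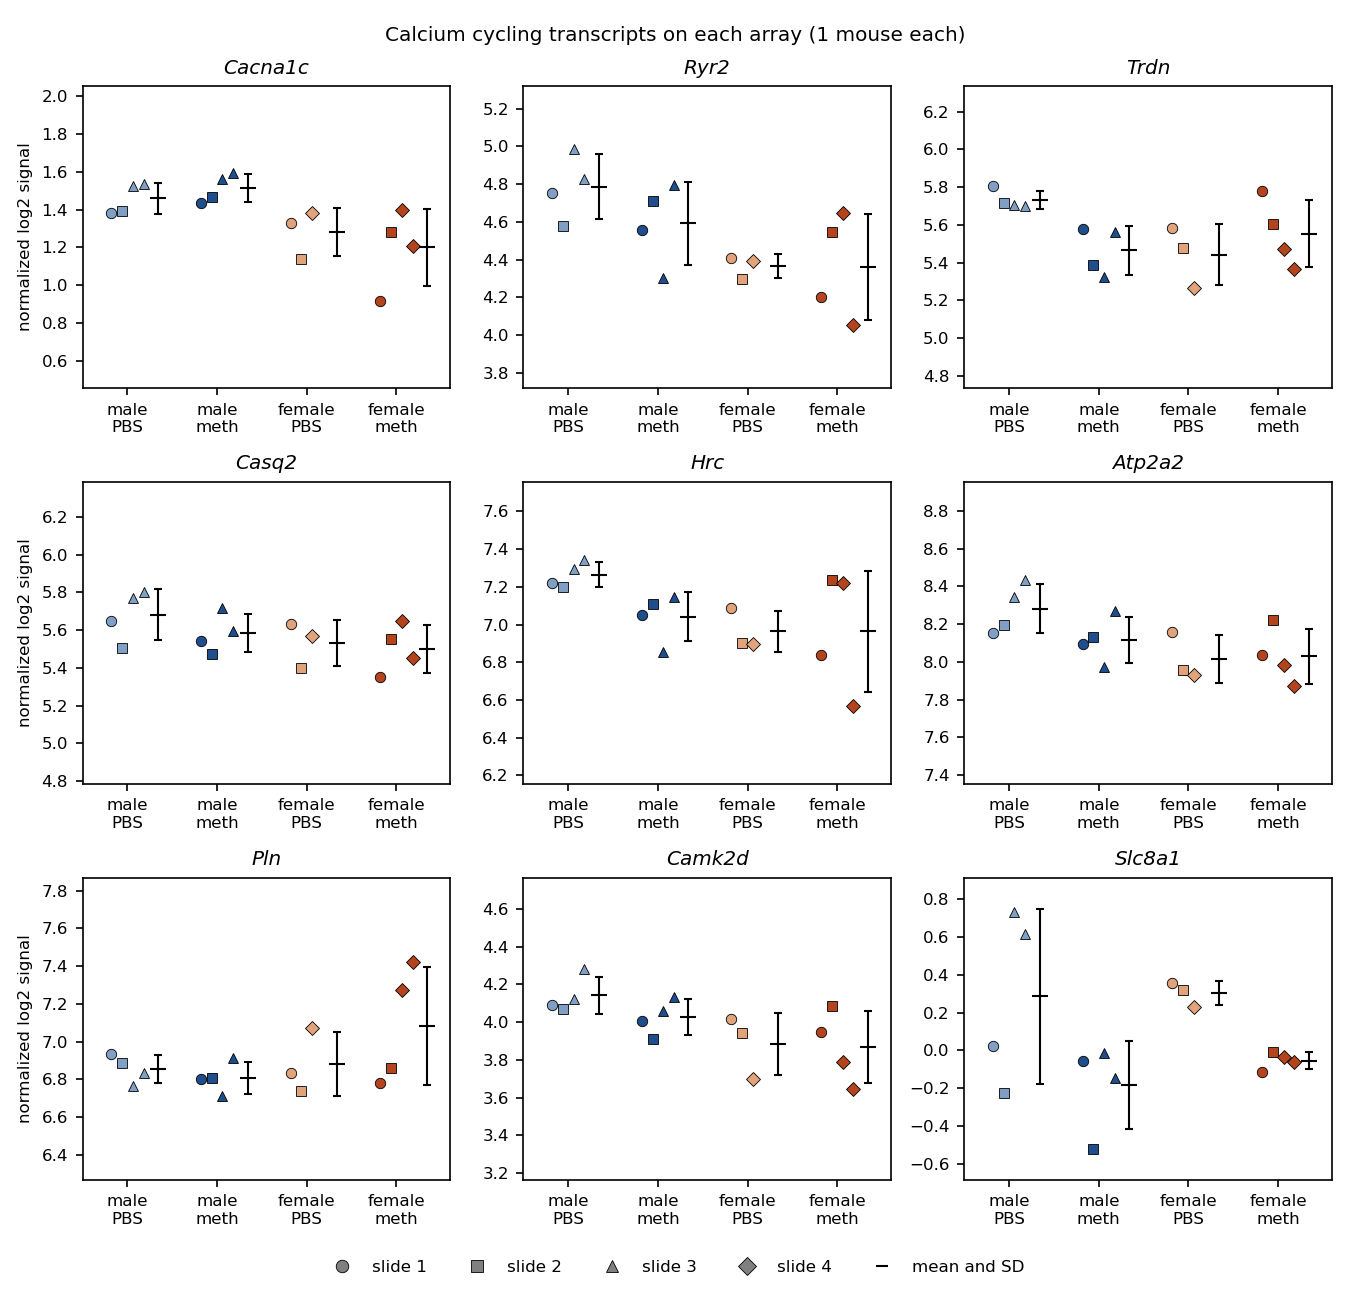
Normalized log2 signal (vertical axis, log2 units relative to each array's 75th percentile, every panel spanning 1.6 units) of the 9 calcium cycling transcripts on each of the 15 arrays. Points are single mice with the symbol giving the slide, and bars are the mean and SD of each group. Slc8a1 in female meth hearts lies from -0.11 to -0.01, below all female PBS hearts at 0.23 to 0.36, whereas for Atp2a2 the groups of each sex overlap.

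When the responses of the sexes were averaged, Slc8a1 was lower in meth hearts and was the only member past the threshold, 1 of 9, where 1.52% of all probes were called lower and 2.65% in either direction. Counted by gene, as the members are, 119 of 14217 were called lower and 198 higher. Its signal in female PBS hearts was 0.36, 0.32 and 0.23. In female meth hearts it was -0.11, -0.01, -0.03 and -0.06. On the brightest probe of the gene, every meth-treated female therefore lay below every female control. The log2 fold change was -0.36 (95% interval -0.65 to -0.06, adjusted p = 0.319, exact permutation p = 0.0286 over all exchanges of the 7 arrays). With treatment exchanged only within slides, 12 exchanges are possible and the exact p was 0.0833, the smallest this exchange allows. Such a separation in this direction was seen for 5.92% of all probes in females.

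In males the Slc8a1 signal of trial 1 was 0.02 and -0.23 in PBS hearts and -0.06 and -0.52 in meth hearts. In trial 2 it was 0.73 and 0.62 in PBS hearts and -0.01 and -0.15 in meth hearts. The trial 2 controls were the highest of all 15 mice, and the male groups overlapped, since the trial 1 control at -0.23 lay below 3 of the 4 meth-treated males (exact permutation p = 0.2, and 0.0833 within slides). The male log2 fold change was -0.47 (95% interval -0.74 to -0.20, adjusted p = 0.119), -0.19 within trial 1 and -0.76 within trial 2 (adjusted p = 0.953 and 0.0536). The difference between the trials, -0.57, had an unadjusted p of 0.0157 and an adjusted p of 0.999.

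The average response of Slc8a1 was -0.41 (standard error 0.09, 95% interval -0.62 to -0.21, adjusted p = 0.0368), a 1.33-fold lower level of the exchanger transcript. With the slide as a block the value was -0.41 and the adjusted p 0.0358, so the call was kept. It was lost with the replicate block, which pairs meth and PBS arrays of the same number and slide (-0.41, adjusted p = 0.0803). The call was also lost when any of 12 of the 15 arrays was left out, with values from -0.49 to -0.37 and adjusted p from 0.00371 to 0.0929 over all 15. The arrays whose loss kept it were male meth replicate 1 and male PBS replicate 2 of trial 1 and female meth replicate 2. Without male meth replicate 1 of trial 1, Slc8a1 also passed in males alone, at -0.62 with an adjusted p of 0.0127.

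The array holds 4 probes for Slc8a1, which share the transcript and are not independent replicates. The average response was -0.41 for A_52_P876218, the brightest, -0.56 for A_51_P191448 (adjusted p = 0.0178) and -0.51 for A_52_P231461 (adjusted p = 0.0299). The fourth probe, A_52_P562704, gave -0.15 and an adjusted p of 0.31. The female meth and PBS groups overlapped on A_51_P191448 and A_52_P562704 but not on A_52_P231461. In males alone A_51_P191448, which was well above background on 14 of the 15 arrays, came closest to the threshold, at -0.66 with an adjusted p of 0.0521. Over the 15 arrays the brightest probe correlated with these others at r = 0.88, 0.96 and 0.47 in the same order. The probe with the smallest response was thus the one least like the brightest, over arrays that include the response itself. A_52_P562704 was close to the brightest probe in level, with group means of -0.35 to 0.12 against -0.18 to 0.30. A_51_P191448 was far dimmer, at -4.41 to -3.71.

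**Figure D2:**
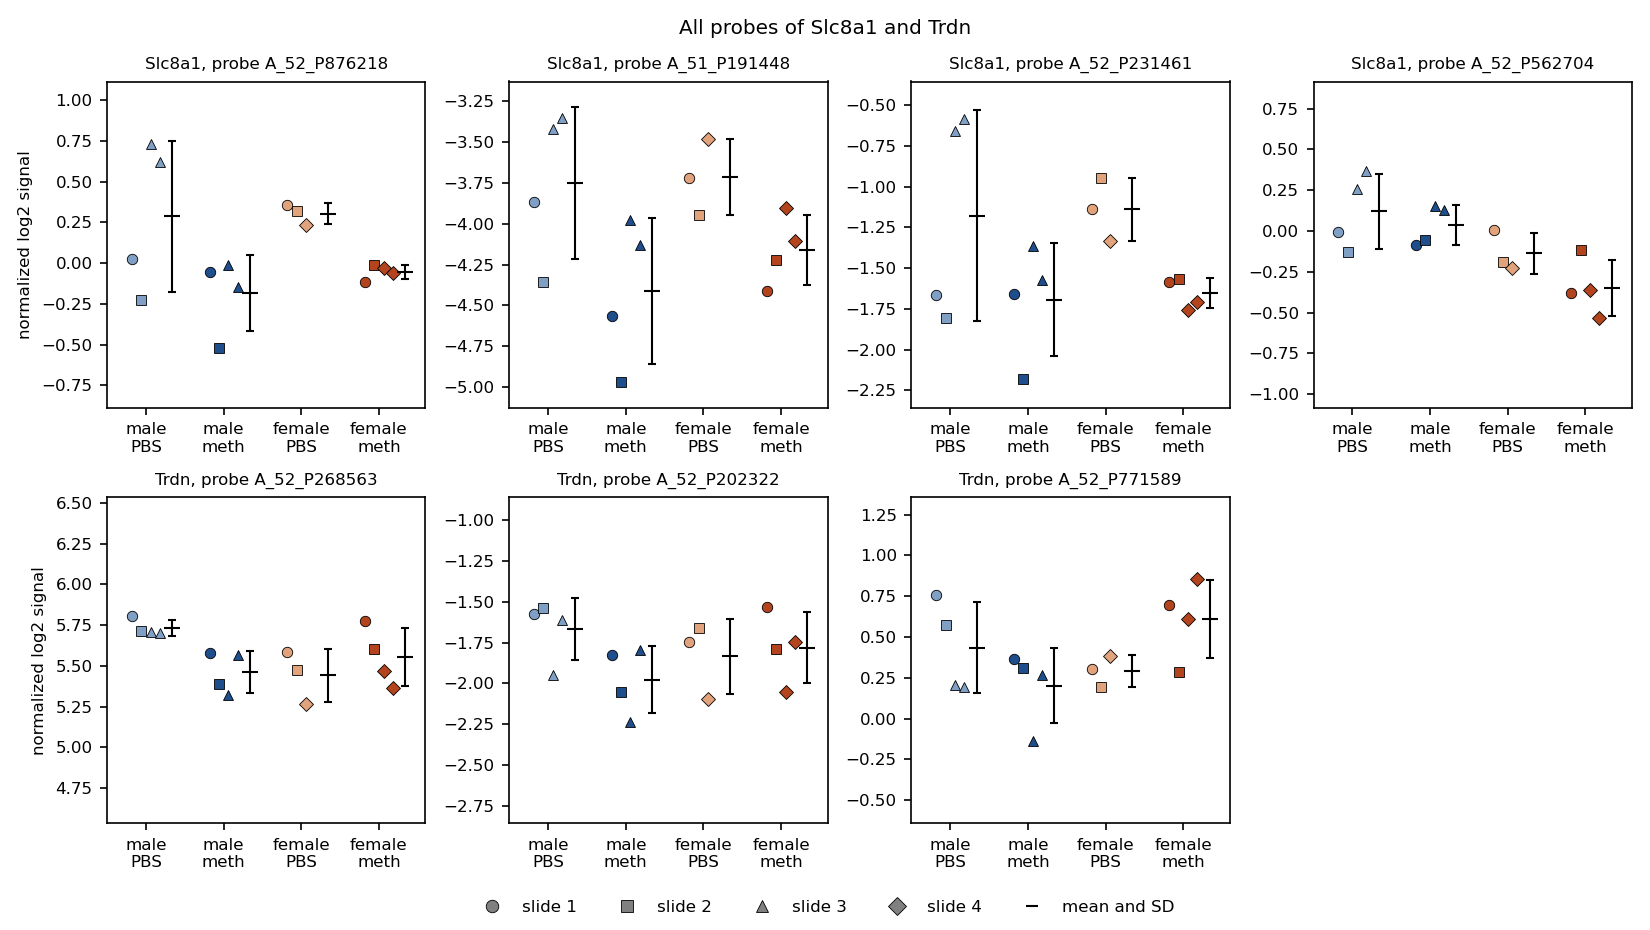
Normalized log2 signal (vertical axis, every panel spanning 2 units) of the 4 Slc8a1 probes and the 3 Trdn probes on each array. Points are single mice with the symbol giving the slide, and bars are the mean and SD of each group. For Slc8a1 the meth means lie below the PBS means of the same sex on all 4 probes, and for Trdn they lie below in males and above in females on all 3.

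Trdn, which links the release channel to the calcium store, did not pass the threshold. On its brightest probe every male meth heart lay below every male PBS heart. On its other probes, A_52_P202322 and A_52_P771589, the male groups overlapped (exact permutation p = 0.0857 and 0.286). Male PBS hearts had signals on the brightest probe of 5.80 and 5.72 in trial 1 and 5.71 and 5.70 in trial 2. Male meth hearts had 5.58 and 5.39 in trial 1 and 5.32 and 5.56 in trial 2. The groups did not overlap, at a log2 fold change of -0.27 (95% interval -0.49 to -0.05, adjusted p = 0.284, exact permutation p = 0.0286, and 0.0833 within slides, the smallest that the 24 exchanges there allow). In females the signals were 5.58, 5.48 and 5.27 after PBS and 5.78, 5.60, 5.47 and 5.36 after meth. These overlapped, and the log2 fold change of 0.11 (95% interval -0.13 to 0.35) had the other sign. It was 0.02 without female PBS replicate 3, 0.04 without female meth replicate 1, 0.17 without female meth replicate 4 and 0.18 without female PBS replicate 1.

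Trdn therefore had the largest difference between the sexes among the 9 members. The male minus female response was -0.38 (standard error 0.15, 95% interval -0.70 to -0.05), with an unadjusted p of 0.0262 and an adjusted p of 0.539. It was -0.55 for probe A_52_P771589 and -0.36 for A_52_P202322, with adjusted p of 0.44 and 0.661. No member passed for this difference, where 0.138% of all probes did. Counted by gene, 18 of 14217 were called higher and 4 lower. Of the 9 members, 8 had a lower response in males than in females, with Cacna1c as the exception at 0.14. The other Cacna1c probe, A_52_P25903, gave -0.05. Of all 14217 genes tested, 8223 were lower in this way. The cardiomyocyte list had 9 of 12 genes lower and a median of -0.12. The members' median difference of -0.18 (over all genes -0.04) was -0.04 after quantile normalization and -0.29 after a shift by the median. Over the alternatives applied to all 9 genes at once, 5 to 8 members were below 0.

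**Figure D3:**
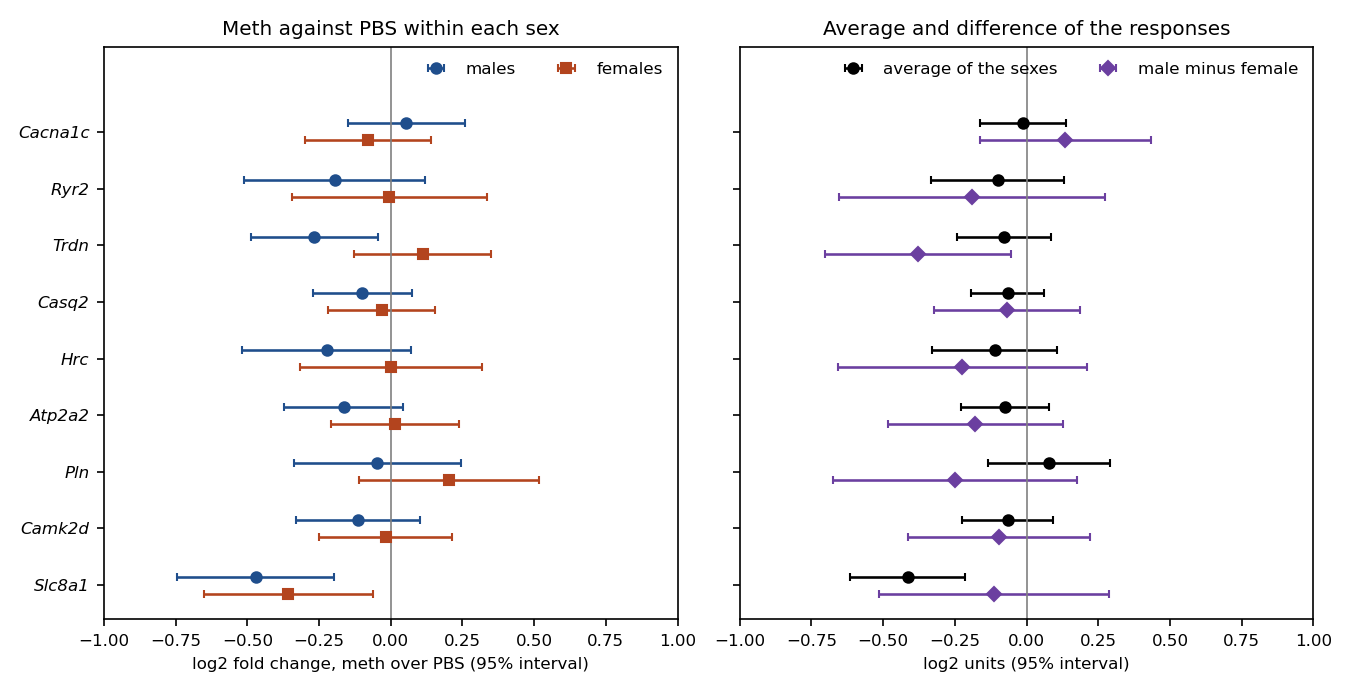
Log2 fold change of meth over PBS in each sex (left) and the average and the male minus female difference of these responses (right) for the 9 genes, in log2 units on the horizontal axes. Points are limma estimates and bars their 95% intervals. Slc8a1 lies left of 0 in both sexes, at -0.47 and -0.36, and its average is the one value past the adjusted threshold.

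For the channels of calcium entry and release, no response passed in either sex. Cacna1c, the pore of the L-type channel, averaged 1.46 ± 0.08 (SD, n = 4) after PBS against 1.51 ± 0.08 (SD, n = 4) after meth in males, and 1.28 ± 0.13 (SD, n = 3) against 1.20 ± 0.20 (SD, n = 4) in females. Ryr2 averaged 4.79 ± 0.17 (SD, n = 4) against 4.59 ± 0.22 (SD, n = 4) in males and 4.37 ± 0.06 (SD, n = 3) against 4.36 ± 0.28 (SD, n = 4) in females. The groups of each sex overlapped for both genes. The 95% intervals of the log2 fold change ran from -0.15 to 0.26 in males and -0.30 to 0.14 in females for Cacna1c, and from -0.51 to 0.12 and -0.34 to 0.34 for Ryr2.

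Hrc, which binds calcium inside the store, was the second member whose male groups did not overlap. Its signals were 7.22, 7.20, 7.29 and 7.34 in male PBS hearts and 7.05, 7.11, 6.85 and 7.15 in male meth hearts. The fold change was -0.22 (95% interval -0.52 to 0.07, adjusted p = 0.536, exact permutation p = 0.0286, and 0.0833 within slides). In females the meth hearts ranged from 6.57 to 7.23 around PBS hearts of 6.90 to 7.09, and the log2 fold change was 0.00. With Trdn and Hrc, 2 of the 20 member probes had all male meth arrays below all male PBS arrays, where 5.17% of all probes did. Casq2, the main calcium buffer of the store, had log2 fold changes of -0.10 in males (95% interval -0.27 to 0.07) and -0.03 in females (-0.22 to 0.15), with overlapping groups.

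On the side of calcium uptake, the SERCA2 transcript Atp2a2 did not pass in either sex. Male PBS hearts had signals of 8.15 and 8.20 in trial 1 and 8.34 and 8.43 in trial 2. Male meth hearts had 8.09 and 8.13 in trial 1 and 7.97 and 8.27 in trial 2. The meth hearts were thus lower on average, but the mouse at 8.27 lay above both trial 1 controls, and the log2 fold change of -0.16 (95% interval -0.37 to 0.04) had an adjusted p of 0.512. In females Atp2a2 was 8.16, 7.96 and 7.93 after PBS and 8.04, 8.22, 7.98 and 7.88 after meth, a log2 fold change of 0.01 (95% interval -0.21 to 0.24). Of the 2 other Atp2a2 probes, A_52_P168097 gave -0.04 in males and -0.18 in females and A_52_P569001 -0.16 and -0.06, none past the threshold.

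Phospholamban, the brake on SERCA2, differed between slides in females. Pln was 6.84 and 6.74 in the female PBS hearts of slides 1 and 2 and 7.07 in that of slide 4. Female meth hearts had 6.78 and 6.86 on slides 1 and 2 and 7.27 and 7.42 on slide 4. The 3 slide 4 arrays were the highest of all 15, and the female log2 fold change was 0.20 (95% interval -0.11 to 0.52, adjusted p = 0.69). It was 0.03 without slide 4, 0.09 without female meth replicate 4, 0.13 without female PBS replicate 2 and 0.30 without female meth replicate 1 or without female PBS replicate 3. In males it was -0.05 (95% interval -0.34 to 0.24). Camk2d had -0.11 in males (95% interval -0.33 to 0.10) and -0.02 in females (-0.25 to 0.21).

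Set within slides, where each slide carried both treatments, the male differences of Atp2a2, Camk2d, Casq2, Hrc, Slc8a1 and Trdn were below 0 on all 3 male slides. Slc8a1 was below 0 on all 3 female slides as well, at -0.47, -0.33 and -0.28, and Trdn above 0 on all 3, at 0.19, 0.13 and 0.15. For the remaining genes the female slides disagreed: 8 of 9 members were lower with meth on slide 1, 1 of 9 on slide 2 and 6 of 9 on slide 4. In each sex, slides 1 and 2 compare 1 meth mouse with 1 PBS mouse, so the values of these slides carry no error of their own. In males 8, 7 and 7 of the 9 were lower on slides 1, 2 and 3, and Slc8a1 ranged from -0.08 on slide 1 to -0.76 on slide 3. Over all 14217 genes tested, 7833 had a male log2 fold change below 0. The share of all genes with the same sign on every slide was not counted.

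**Figure D4:**
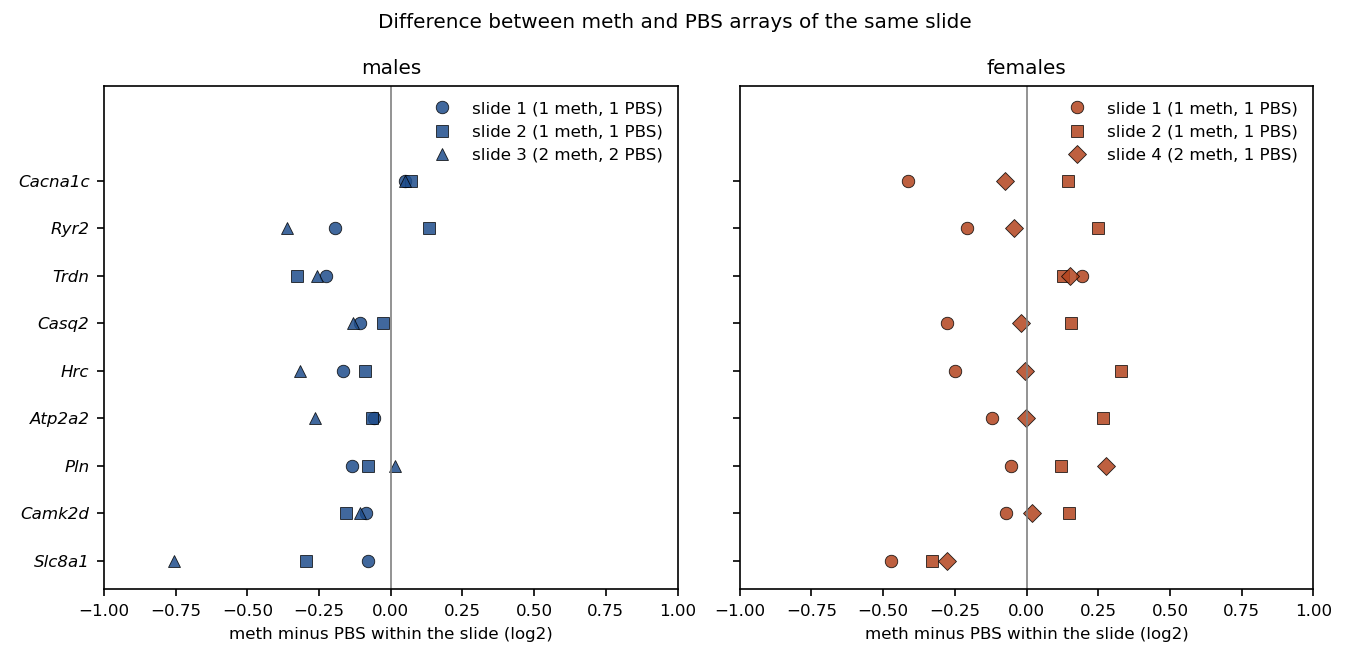
Mean log2 signal of meth arrays minus that of PBS arrays on the same slide (horizontal axis) for the 9 genes in males and females. Each symbol is a slide with the number of mice given in the legend. Slc8a1 lies left of 0 on every slide in both sexes, and Trdn left of 0 in males and right of it in females.

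In control hearts the male and female levels of the members were not separated by the test, since 0 of 9 passed where 0.48% of all probes did. Counted by gene, 33 of 14217 were called higher in males and 45 lower. With the trial in the fit, 7 of the 9 were higher in male PBS hearts, as were 7443 of all 14217 genes tested. The largest such differences among the members were 0.38 for Ryr2 (95% interval 0.01 to 0.76, adjusted p = 0.319) and 0.31 for Trdn (95% interval 0.05 to 0.58, adjusted p = 0.254). Slc8a1 was -0.26 (95% interval -0.59 to 0.06) with the trial in the fit, but the group means were 0.29 in males and 0.30 in females, a difference of -0.02 without the trial. It was -0.06 with the trial of the other label and -0.10 without male PBS replicate 2 of trial 1, so no order of the sexes is read from it. The cardiomyocyte marker list moved the same way, with 11 of 12 genes above 0 and a median of 0.19, where the 9 members had a median of 0.19. Relative to the cardiomyocyte list, 4 rather than 2 of the members were below 0 and their median was 0.02.

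The wider machinery of calcium handling was examined in 6 lists with 86 genes, of which 82 were on the array and 80 tested. It held no gene past the threshold in males and 1 in females, Rrad, a small GTPase that restrains the L-type channel. Of all 14217 genes tested, 148 were called higher and 42 lower in males, and 34 higher and 29 lower in females. The Rrad signal was 2.78 ± 0.25 (SD, n = 3) in female PBS and 2.08 ± 0.18 (SD, n = 4) in female meth hearts. Its log2 fold change was -0.70, with a standard error of 0.12 and an adjusted p of 0.0283. In males the PBS hearts had 2.84 ± 0.11 (SD, n = 4), the meth hearts 2.68 ± 0.12 (SD, n = 4) and the fold change was -0.17 (adjusted p = 0.591), and the difference between the sexes did not pass (0.53, adjusted p = 0.435). Averaged over the sexes Rrad gave -0.43 (adjusted p = 0.0192) and was the only one of the 80 past the threshold. In that average 198 of all 14217 genes tested were called higher and 119 lower.

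The medians of the lists stayed between -0.15 and 0.03 in males and between -0.01 and 0.12 in females. Calcium entry had medians of -0.02 and 0.06, release and triad -0.02 and 0.00, and uptake and its regulators 0.02 and 0.12 in males and females. Calcium extrusion and the sodium pump had -0.15 and 0.02, the kinases, phosphatases and anchors -0.12 and 0.05, and mitochondrial calcium 0.03 and -0.01. In the extrusion list, to which the exchanger of the members is closest in function, 7 of 7 tested genes were below 0 in males and 2 of 7 in females, with 0 called. Over all 14217 genes tested, 7833 were below 0 in males and 5892 in females. A shift by the cardiomyocyte list moved every male value by 0.068.

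Apart from Rrad, genes at the extremes of these lists did not pass. They were Tcap, which anchors titin at the Z-disc, at 0.43 in both sexes (adjusted p = 0.238 in males and 0.318 in females), and Ppp1r1a, an inhibitor of protein phosphatase 1, at 0.14 in males and 0.59 in females. Atp2b2, a plasma membrane calcium pump, was at -0.61 in males and 0.60 in females, and Prkar2b, a regulatory subunit of protein kinase A, at 0.59 and 0.81. Cacna1s, the pore of the skeletal muscle L-type channel, was at -0.41 in males, Slc8b1, the mitochondrial sodium-calcium exchanger, at 0.20 in males, and Letm1, an inner mitochondrial membrane protein, at -0.43 in females.

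**Figure D5:**
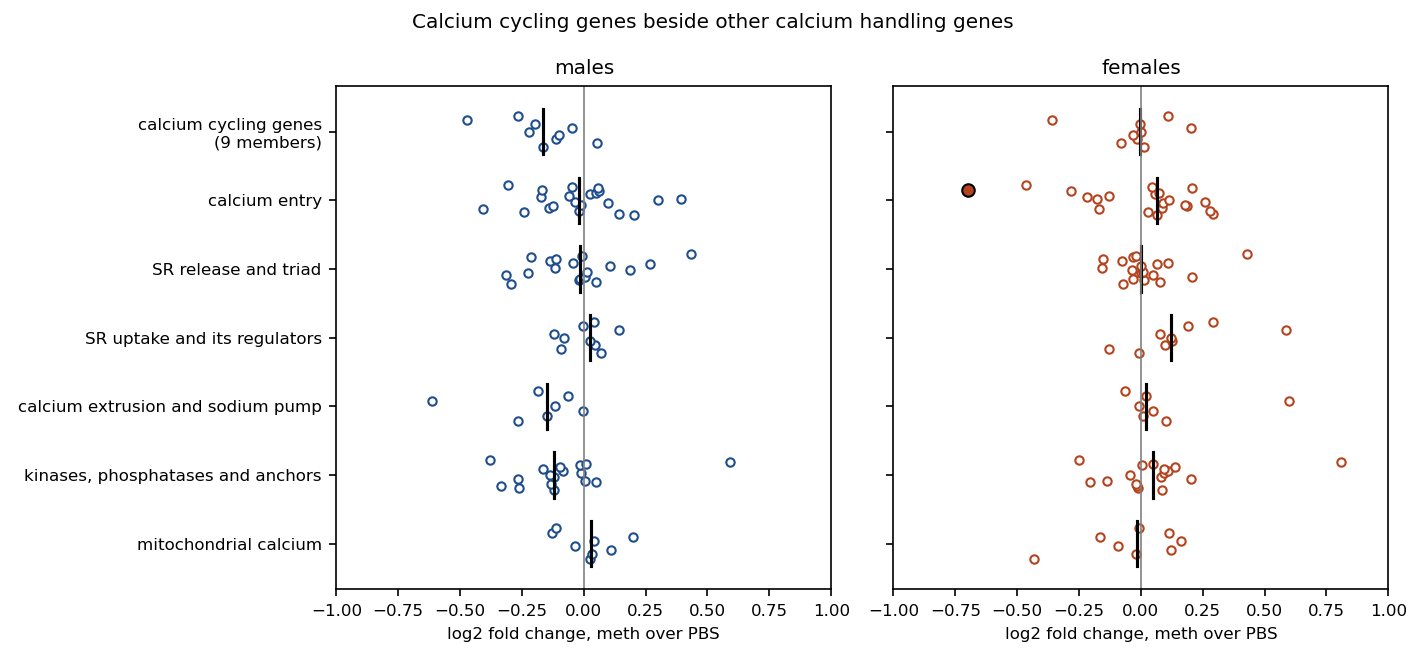
Log2 fold change of meth over PBS (horizontal axis) for the 9 members and the tested genes of 6 wider calcium handling lists, in males and females. Each circle is a gene, a filled circle is past the adjusted threshold of 0.05, and black bars are list medians. The 1 filled circle is Rrad in females at -0.70, and the members' median lies at -0.16 in males.

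Among themselves the members did not rise and fall as one. Over the 15 arrays, 27 of the 36 pairs had a correlation above 0, with a median r of 0.45. Ryr2 and Hrc were closest (r = 0.90, and 0.88 after the group means were removed), followed by Atp2a2 and Camk2d (0.86) and Atp2a2 and Hrc (0.83). Pln ran against Camk2d (r = -0.70) and Atp2a2 (r = -0.45). These correlations are descriptions over 15 arrays that share slides and the scaling to the 75th percentile. The mean deviation of the 9 members from their own means over all arrays was highest in the trial 2 male controls, at 0.23 and 0.24, and ranged from -0.18 to 0.09 elsewhere.

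The transcripts most like that mean over the 15 arrays, of 12592 other genes, were Tmem38a (r = 0.94), which encodes a potassium channel of the sarcoplasmic reticulum, and Srl (r = 0.94), which encodes sarcalumenin, a calcium binding protein of the same store. Mtif2, Bzw2 and Taco1 followed, each at r = 0.93. Tmem38a had log2 fold changes of -0.16 in males and -0.04 in females, and Srl -0.20 and -0.06, and neither passed (adjusted p = 0.486 and 0.948 for Tmem38a, 0.339 and 0.9 for Srl). Both were picked by likeness over arrays that include the response, so fold changes like those of the members follow in part from that choice. After the group means were removed, r was 0.92 for Tmem38a and 0.87 for Srl.

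Other tissue lists were set beside these values. None of the genes of the atrium, ventricle, cardiac stress, fibroblast, endothelium, smooth muscle, leukocyte and red blood cell lists passed in either sex or in the average. All 6 atrium genes were nonetheless above 0 in each sex, with medians of 0.12 in males and 0.37 in females, as were all 3 red blood cell genes tested (0.46 and 0.61) and all 5 fat genes (0.75 and 1.05). Of all 14217 genes tested, 6384 were above 0 in males and 8325 in females. Of the skeletal muscle list, Tnni2 was lower in males (-0.64, adjusted p = 0.0243), and of the fat list, Cidec was higher in the average of the sexes (1.28, adjusted p = 0.0236). The log2 of the summed fat signal was 7.50 to 8.30 in male meth and 7.36 to 7.90 in male PBS hearts, and 7.32 to 8.04 and 7.16 to 7.65 in the female groups. What part these lists have in the responses of the members was not tested.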

How the data were processed

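RNA from the hearts of 15 mice was labelled with Cy3 and hybridised to Agilent mouse 4x44K arrays. The authors deposited the Feature Extraction output, whose background-subtracted spot intensity was used (version 10.5.1.1 per the file headers, 9.1 per the submitters' processing notes). The deposited table of log2 values differed from these signals only by a shift for each array (r = 1 on every array), with column medians of 5.19 to 5.38, and served as an alternative.

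Control and outlier-flagged spots were left out, spots of a probe averaged on the log2 scale, and each array shifted by its 75th percentile. No non-control spot was saturated. Tests covered 28358 probes, those flagged well above background on 3 or more arrays, by limma 3.58.1 in R 4.3.3, in a single fit of the 4 groups and the trial, two-sided, with Benjamini-Hochberg adjustment over all probes tested and a threshold of 0.05. The trial in the fit was that of the sample titles, which place all females in trial 1. Symbols came from RefSeq accessions. A gene is given by its brightest probe. Exact permutation tests, two-sided, exchanged all arrays of 1 sex and, as an alternative chosen after seeing the data, those of a slide only. The methods' t-test was run on the same values. The fit was tested on simulated data. Plots used matplotlib 3.10.9 in Python 3.11.15. Precision is limited by the number of arrays.

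The 9 members, the gene lists and the tests were chosen with earlier results of these data known. All members are named, as are genes of the wider lists past the threshold or with the largest absolute change of a list in each sex, and the 5 genes most like the members' mean. Tnni2 and Cidec were named after their values were seen.

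As a check of pairing, meth and PBS arrays of a number deviated together from their groups, with correlations of 0.17 to 0.62 over the 7 pairs. Each pair shared a slide. Arrays of a slide with different numbers were not compared, so the check does not tell pairing by number from a shared slide. Alternatives covered background correction, scaling, filters, covariates, blocks, single arrays left out and the choice of probe.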

Additional observations from a re-analysis of the deposited data

Results flagged for a closer look

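In male PBS hearts, trial 1 replicate 1 stood above the other 3 mice in Trdn at a normalized log2 signal of 5.80, with a gap to its nearest neighbour that was 0.846 of the group's range. It was the only such outlier among 27 groups tested, and chance gives about 1 in 20.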

How the results depend on the processing

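The count of members past the threshold in the average of the sexes, 1 (Slc8a1), became 0 with normexp background correction, a shift by the median, a shift by the cardiomyocyte list, no filter on dim probes, no trial term, the trial of the source names, the replicate block, trial 1 arrays alone and without slide 4. Adjusted p for Slc8a1 under these was 0.0599 to 0.321, and over all alternatives 0.00371 to 0.321, with a negative log2 fold change throughout. With single arrays left out the count was 0 to 1 in the average and 0 to 1 in males. It stayed at 0 in females and for the male minus female response. The median male minus female response, -0.18, was -0.0428 with quantile normalization, -0.29 with a shift by the median, -0.0832 with a shift by the cardiomyocyte list and -0.0775 in trial 1 alone, and -0.220 to -0.0841 with single arrays left out. The shift by the median moved all male minus female values by -0.11 and those of PBS males against females by 0.12, and that by the cardiomyocyte list moved the latter by -0.17. The replicate block changed no other call of a member. Over all probes, the number past the threshold in males was 314 and ranged from 0 (methods' paired t-test) to 667 (scan session in place of the trial), in females it was 215 and ranged from 0 to 508 by the same alternatives, and in the average it was 751 and ranged from 111 (normexp) to 1507 (scan session). The cause of these differences was not tested. Leaving out slide 4 and the scan session were chosen after seeing the data.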
